A study of Mus musculus with 4 samples.

Results

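The genes of the major milk proteins were followed across mammary tumours of 2 genotypes with and without the progesterone antagonist RU486. The set holds 10 genes, taken by name: the caseins Csn1s1, Csn2, Csn1s2a, Csn1s2b and Csn3, the whey genes Wap and Lalba, and Glycam1, Cel and Btn1a1. All 10 were on the array, with 17 probe sets, out of 12393 genes with a probe set of their own. The tumours arose in female nulliparous mice given MP (Depo-Provera, 15 mg, a progestin) and then 4 weekly oral doses of 1 mg of the carcinogen DMBA, which all 4 groups shared. WT mice were FVB littermates of mice with the MMTV-PAX8PPARg transgene, a fusion of PAX8 and PPARg driven by the promoter of mouse mammary tumour virus. Slow-release pellets (60 days) with either placebo or 2.5 mg of RU486, which also blocks the glucocorticoid receptor, were implanted 1 day after DMBA ended and once more after 60 days. Each group is 1 array of RNA pooled from 5 mice. With 1 array a group there are no replicates, no difference between 2 arrays has a test, and precision is limited by how few arrays there are. The labels call the tissue mammary tumour, while the extraction protocol speaks of excised gland tissue. The viral promoter is active in mammary epithelium and itself responds to progestins and glucocorticoids. Signals below are given in the array order WT placebo, WT RU486, PAX8PPARg placebo, PAX8PPARg RU486. The Pax8 probe set read 0.5, 1.8, 0.4 and 3.1, all within background, and Pparg read 75.9, 35.4, 497.5 and 13.2, so the arrays gave no check of the transgene, and whether these probe sets would detect the fusion was not tested.

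Milk proteins are made by the alveolar luminal cells of the mammary gland. Caseins bind calcium phosphate in micelles, the whey proteins stay in solution, and butyrophilin coats the fat globule as it leaves the cell. In the normal mouse gland their transcription depends on prolactin acting through STAT5, on glucocorticoids and on the alveolar factor ELF5. Casein genes come on earlier in pregnancy, while Wap and Lalba reach high levels only towards lactation, and progesterone holds back full secretion until birth.

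The casein genes lie together on chromosome 5, within 266.3 kb (chr5:87666208-87932550 in GRCm38.p6, as for all positions here), in the order Csn1s1, Csn2, Csn1s2a, Csn1s2b, Csn3. The other members are elsewhere: Wap at chr11:6635483-6638654, Lalba at chr15:98480400-98482934, Glycam1 at chr15:103562759-103565081, Cel at chr2:28555819-28563403 and Btn1a1 at chr13:23456984-23465914. RefSeq promoter sequence (GRCm38.p6) was at hand for 7 of the 10 genes, and the 250 bases before the transcript start were searched on both strands. For Lalba, the window of the listed start overlaps a longer transcript, and for Csn2 and Wap it runs a few bases into the annotated gene. The letters TTCNNNGAA, the palindrome that STAT factors bind, were in 3 of the 7 windows and in 7.02% of all 32851 promoters in the table. TTGGC, a nuclear factor I half-site, was in 5 of 7 against 41.5% of all. GGAAGT, a core of ETS factors such as ELF5, was in 2 of 7 against 19.7%. TGTTCT, a glucocorticoid receptor half-site, was in 1 of 7 against 16.1%, and TATAAA in 0 of 7 against 12.4%. These matches describe letters and are not binding sites. The 150 bases before the start are shown for the 3 genes with the STAT letters, in capitals, and for Wap, which has none in its window. They lie at chr5:87666058-87666207 (+ strand), chr5:87699426-87699575 (- strand), chr15:103565082-103565231 (- strand) and chr11:6638650-6638799 (- strand).
Csn1s1: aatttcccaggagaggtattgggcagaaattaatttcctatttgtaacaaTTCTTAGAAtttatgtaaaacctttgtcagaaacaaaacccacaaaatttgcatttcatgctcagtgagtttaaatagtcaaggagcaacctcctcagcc
Csn2: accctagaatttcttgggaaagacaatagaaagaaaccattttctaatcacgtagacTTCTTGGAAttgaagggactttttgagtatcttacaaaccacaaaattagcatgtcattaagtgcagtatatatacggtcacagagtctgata
Glycam1: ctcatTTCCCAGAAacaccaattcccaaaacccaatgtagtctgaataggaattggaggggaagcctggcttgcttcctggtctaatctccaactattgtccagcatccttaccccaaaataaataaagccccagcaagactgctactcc
Wap: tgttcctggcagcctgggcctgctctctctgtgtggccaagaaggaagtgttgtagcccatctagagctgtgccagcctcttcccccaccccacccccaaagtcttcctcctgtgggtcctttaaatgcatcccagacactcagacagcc
The capitals span bases -100 to -92 before the start in Csn1s1, -93 to -85 in Csn2 and -145 to -137 in Glycam1.

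Values are probe set signals as the authors deposited them. Where a gene has several probe sets, the one with the highest mean represents it. A difference is that of log2(signal + 16) between 2 arrays, each centred on its median, so 1 unit is 2-fold, and genes were counted by a size of 2-fold or more. The brightest bacterial control on each array read 9.6, 18.5, 8.3 and 35.3, and a signal no higher than that is taken as within the background range. Of the 17 member probe sets, 6 lay in that range under RU486 in WT and 4 under RU486 in PAX8PPARg. Relative to WT placebo, spike-in controls were 1.58, 1.01 and 2.44 times as bright on the remaining arrays. The Gapdh 3' to 5' signal ratio, a measure of RNA integrity, was 2.51, 3.33, 2.89 and 3.01.

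Every one of the 17 probe sets was brightest on the WT placebo array, which was the brightest array for 16.6% of all genes. Together they made up 0.747%, 0.0380%, 0.185% and 0.187% of an array's summed signal. WT RU486 was the lowest array for 8 of the 10 genes. Wap and Csn1s2b were instead lowest under placebo in PAX8PPARg. In whole tumours, fewer cells of a type and less RNA per cell cannot be told apart.

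**Figure D1:**
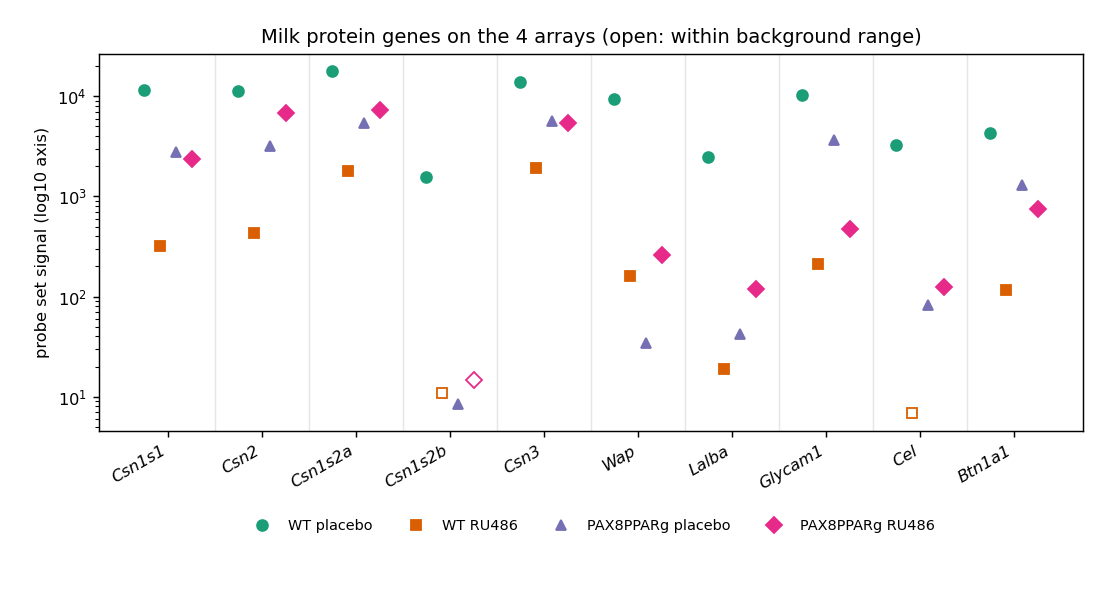
Signals of the 10 milk protein genes (x axis) in the 4 groups (1 point per array, legend in the plot, log10 axis, chosen probe set); open symbols lie within the background range. The WT placebo array is highest for every gene, and Csn2 under RU486 reads 6796.3 in PAX8PPARg against 430.1 in WT.

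Among the caseins, Csn1s1 (alpha-s1-casein) had signals of 11569.5, 321.5, 2774.7 and 2374.6. Csn2 (beta-casein) had 11273.2, 430.1, 3159.3 and 6796.3. Its second probe set, at 9677.6, 343.8, 2711.6 and 5405.9, gave the same order of arrays. Csn3 (kappa-casein, which stabilises the micelle surface) read 13790.9, 1931.1, 5689.7 and 5396.4. For Csn1s1, Csn2 and Csn3 the WT RU486 array was the lowest, and both PAX8PPARg arrays lay between it and the WT placebo array.

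The alpha-s2-like caseins differed from each other. Csn1s2a read 17927.9, 1775.2, 5426.3 and 7270.5, the same order of arrays as Csn2. Its next probe set read 9917.6, 194.2, 1020.8 and 1321.4, in that order too. Csn1s2b read 1563.3, 10.8, 8.4 and 14.8, and was within the background range on both RU486 arrays and just above it under placebo in PAX8PPARg. So Csn1s2b was measured well above background on the WT placebo array alone, although the brightest probe sets of Csn1s2a and Csn3, its neighbours in the cluster, read 5396.4 or more on both PAX8PPARg arrays.

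The whey genes had far higher signals on the WT placebo array than on the other arrays. Wap (whey acidic protein, a protease inhibitor-like protein of rodent milk) read 9418.6, 159.2, 34.2 and 257.2. Lalba (alpha-lactalbumin, the regulatory subunit of lactose synthase) read 2456.4, 19.0, 42.0 and 119.6. Cel (bile salt-stimulated lipase, made by the mammary gland and the exocrine pancreas) followed them, at 3300.3, 6.8, 82.4 and 125.7, the WT RU486 value being within the background range. Of the 3 genes, Wap was lowest on the PAX8PPARg placebo array, whereas Lalba and Cel were lowest on the WT RU486 array.

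Btn1a1 (butyrophilin) read 4330.4, 117.0, 1314.6 and 753.8, and Glycam1 (a mucin-like milk protein that high endothelial venules of lymph nodes also make) read 10370.6, 210.2, 3649.4 and 474.7. Like Csn1s1, both were second brightest under placebo in PAX8PPARg and lowest under RU486 in WT. The remaining Btn1a1 probe sets read 430.6, 14.0, 84.1 and 32.9, and 363.7, 84.0, 79.0 and 89.8, again with WT placebo highest. Over the 4 centred log2 values of the chosen probe sets, the closest pair of members was Csn1s1 and Btn1a1, at a Euclidean distance of 0.40 log2 units, followed by Csn1s2a and Csn3 at 0.50 and Lalba and Cel at 1.02. The most distant pair was Wap and Glycam1, at 5.00. These distances rest on 4 arrays.

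The first comparison concerned RU486 in WT tumours. All 10 genes were lower by 2-fold or more in the RU486 pool than in the placebo pool, where 8.88% of all genes were lower by 2-fold or more and 7.46% higher by 2-fold or more. The members' median difference was -5.31 (all genes 0.01), or -5.97 with arrays scaled to the spike-in controls, where all genes had -0.65. Cel had the largest difference (-7.18), and since its RU486 signal was within the background range the signals put it at least 178-fold lower. Lalba differed by -6.14, Csn1s2b by -5.88 (at least 84.5-fold, for the same reason), Wap by -5.75 and Glycam1 by -5.52. Csn1s1 differed by -5.10, Btn1a1 by -5.03 and Csn2 by -4.66. Csn3 had the smallest difference (-2.83) and read 1931.1 under RU486. Csn1s2a differed by -3.32, but by -4.76 with its probe sets averaged, and Btn1a1 then by -3.62.

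In WT, the probe sets of a gene shared a direction under RU486 but not always a size. There, the 4 probe sets of Csn1s2a ranged from -5.56 to -3.32, the 3 of Btn1a1 from -5.03 to -1.92, and the other Csn3 probe set differed by -2.34. All 17 were lower by 2-fold or more. In PAX8PPARg the 2 probe sets of Csn2 shared a direction too (1.12 and 1.23). Those of Csn1s2a (-0.39 to 0.55), Csn3 (-0.40 to 0.06) and Btn1a1 (-0.90 to 0.29) did not. The -0.40 of Csn3 and the -0.90 of Btn1a1 came from probe sets within the background range under RU486 in PAX8PPARg (7.9 and 32.9). In WT, the brightest probe set of Csn1s2a gave the smallest difference of its 4, and the remaining ones ran from -5.56 to -4.79.

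**Figure D2:**
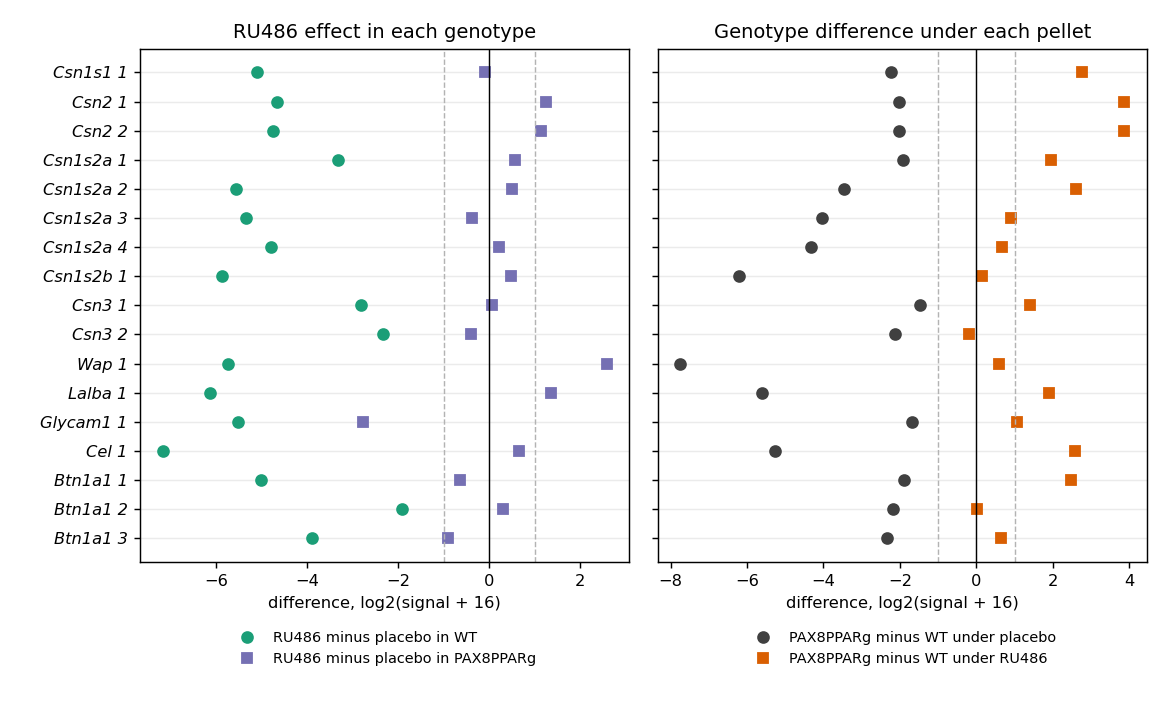
Differences on the log2(signal + 16) scale (x axis) for each of the 17 probe sets (rows, numbered by falling mean within a gene); the left panel gives RU486 minus placebo in WT (circles) and PAX8PPARg (squares), the right panel PAX8PPARg minus WT under placebo (circles) and RU486 (squares), with dashed lines at 2-fold. All WT circles on the left lie at or below -1.92, while the squares there scatter between -2.77 and 2.58.

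Epithelial markers were lower in the same WT comparison. Of 17 measured luminal markers, 15 were lower by 2-fold or more, with a median of -3.21. The defining marker Epcam, an epithelial adhesion molecule, read 6249.1 under placebo and 479.3 under RU486, and the luminal keratin gene Krt18 read 9096.6 and 2507.1. Of the 10 milk protein genes, 8 lay a further 2-fold or more below that luminal median, and Cel differed from it by -3.98. The luminal markers themselves ran from -4.86 (Krt7) to 0.06 (Esrp2), and 7 milk protein genes lay below the lowest of them. Csn3 (0.38) was close to the luminal median, and so was the brightest probe set of Csn1s2a (-0.12), though not its 3 other probe sets, of which the nearest differed by -4.79 between the pools. Basal markers had a median of -2.46, with 11 of 12 lower by 2-fold or more. Macrophage markers were 10 of 10 higher by 2-fold or more, with a median of 2.29, and their summed signal was 17589.2 under placebo and 63008.1 under RU486. How far the cell content of the pools accounts for the milk protein differences was not tested.

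Other products of secretory cells were also lower in the WT RU486 pool. Of 17 measured genes of the fat globule and other milk products, 16 were lower by 2-fold or more, with a median of -2.81. Lao1, the gene of the L-amino acid oxidase of mouse milk, read 3259.0 under placebo and 20.5 under RU486 (-6.49). Muc15, a mucin of the fat globule membrane, differed by -5.07 and the folate receptor gene Folr1 by -4.49. Of 10 genes of lactose synthesis, 0 differed 2-fold in either direction, and the median was -0.14. The largest differences there were those of the glucose transporter gene Slc2a1 (-0.85), B4galt1, whose product joins with alpha-lactalbumin to form lactose synthase (-0.78), and Ugp2 (-0.57). So on these pools the subunit encoded by Lalba was far lower, whereas its partner B4galt1 stayed within 2-fold.

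The casein kinase gene Fam20c, whose product phosphorylates secreted proteins in the Golgi, read 1678.2 under placebo and 322.3 under RU486 in WT (-2.32). Atp2c2, a secretory pathway calcium pump, differed by -3.09 and was within the background range under RU486. Atp2c1 differed by -0.62. These were the largest differences among 7 measured genes of casein phosphorylation and calcium transport, of which 2 were lower by 2-fold or more.

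Among 25 measured genes of lactogenic signalling and its transcription factors, 10 were lower by 2-fold or more and 1 higher by 2-fold or more in WT, with a median of -0.42. The largest differences were those of the ETS genes Elf5 (3415.1 and 41.9, -5.89) and Ehf (2935.7 and 143.6, -4.21) and of Tfap2c (-2.72). Stat5a read 2254.9, 361.6, 1398.6 and 338.4 over the 4 arrays in the order used above. Under RU486, Stat5a differed by -0.15 in PAX8PPARg minus WT. STAT5 activity was not measured, and its part in the milk protein differences was not tested.

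The same comparison in PAX8PPARg tumours showed no common direction. In the PAX8PPARg RU486 pool, 3 of the 10 genes were higher by 2-fold or more and 1 lower by 2-fold or more than under placebo, where 10.6% of all genes were higher and 7.08% lower by that size. The median was 0.51 over the members and 0.13 over all genes. Wap differed by 2.58, from 34.2 to 257.2, Lalba by 1.36 and Csn2 by 1.23. Glycam1, from 3649.4 to 474.7, differed by -2.77. The other 6 stayed within 2-fold, from -0.66 for Btn1a1 to 0.66 for Cel. Under 7 alternative settings, 2 to 4 genes were higher and 1 was lower by 2-fold or more. The counts changed further when arrays were scaled to the spike-in controls, a setting added after seeing the data. With that scaling 1 gene, Wap, was higher by 2-fold or more and 4 were lower by 2-fold or more, the median was -0.90, and Wap (1.17) alone was positive. The 6 members that turned from positive to negative were Csn2 (-0.18), Lalba (-0.05), Cel (-0.75), Csn1s2a (-0.86), Csn1s2b (-0.94) and Csn3 (-1.35). The median of all genes moved to -1.28 under that scaling.

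The luminal marker median in PAX8PPARg was 0.60, and 1 of 17 was lower and 2 were higher by 2-fold or more. Epcam read 5563.6 under placebo and 7339.1 under RU486. The milk product list had 4 genes lower and 6 higher out of 17. The lower ones were led by the fatty acid transporter Cd36 (-3.74), Muc15 (-3.41) and the lipid droplet gene Cidea (-2.48). The higher ones were led by Ltf (2.38), Pigr (2.17) and Folr1 (1.92). Cd36 and Cidea are also genes of adipocytes, and 7 of 7 adipocyte markers were lower by 2-fold or more (median -3.53, Adipoq 4509.4 and 122.6). Whether adipocyte content had a part in the Cd36 and Cidea differences was not tested. The lactogenic list had 8 genes lower and 1 higher out of 25, led by Tnfsf11, the gene of RANKL (-4.61), Esr1 (-4.24, within the background range under RU486) and Stat5a (-1.86).

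Glycam1 was the 1 member lower by 2-fold or more in PAX8PPARg under RU486. Of 6 measured genes listed for high endothelial venules and lymph node stroma, 6 were highest on the PAX8PPARg placebo array. Their summed signal was 495.8 there and 75.8 to 95.9 on the other arrays. Most of the 495.8 came from Cr2 (201.8), Fcer2a (108.7) and Ltb (86.3), which are not specific to venules. Fut7 read 47.8 and Madcam1 27.7 on that array. The defining gene Chst4, a sulfotransferase of those venules, read 1.3, 10.8, 23.5 and 0.7 over the 4 arrays and exceeded background in PAX8PPARg under placebo only. B cell markers were also highest there in 7 of 7 cases (Cd79a 385.0, against 6.1 to 22.3 elsewhere). On the WT placebo array, where Glycam1 read 10370.6, Chst4 and Cd79a were within the background range. The part of lymph node tissue in the PAX8PPARg Glycam1 values was not tested.

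Subtracting the RU486 difference in WT from that in PAX8PPARg gave a positive value for every member. It was at least 2-fold for 10 of 10, where 15.6% of all genes were at least 2-fold positive and 12.2% at least 2-fold negative. The median was 5.45 against 0.15 over all genes. The values included 2.75 (Glycam1), 2.88 (Csn3), 7.50 (Lalba) and 8.33 (Wap). For Cel, with a WT RU486 signal within background, the value of 7.84 ran from 6.05 to 9.47 with the pseudocount and has no fixed rank. Luminal markers had a median of 3.85 in this difference, with 14 of 17 at least 2-fold positive. The difference was 2-fold or more above the luminal median for 6 members and 2-fold or more below it for 1, Glycam1 (-1.10 from that median). The luminal markers themselves ran from -0.18 (Esrp2) to 6.21 (Krt7). Genes lower by 2-fold or more in WT and higher by 2-fold or more in PAX8PPARg under RU486 made up 2.03% of all genes, and Csn2, Wap and Lalba were the 3 members among them. Only Wap was so under every setting tried, spike-in scaling included.

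The third comparison set PAX8PPARg against WT under placebo. All 10 genes were lower by 2-fold or more in the PAX8PPARg pool, where 5.49% of all genes were lower by 2-fold or more and 4.34% higher by 2-fold or more. Differences were smaller for Csn3 (-1.47), Glycam1 (-1.69), Btn1a1 (-1.90), Csn1s2a (-1.91), Csn2 (-2.02) and Csn1s1 (-2.24). They were larger for Cel (-5.27), Lalba (-5.60), Csn1s2b (-6.21) and Wap (-7.74). The other probe sets of Csn1s2a lay between these groups, at -3.45, -4.03 and -4.32. Csn1s2b read 8.4 on the PAX8PPARg array, where the background limit was 8.3. Its difference was -7.59 with a pseudocount of 1 and -4.64 with 64, so its rank is not fixed. The median was -2.13 (all genes -0.15), or -2.84 with a gene's probe sets averaged. This comparison and that of RU486 in WT share the WT placebo array.

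Luminal markers were close to equal in these placebo pools. Their median was -0.28, and they ran from -1.07 (Krt7) to 0.84 (Elf3), with 1 of 17 lower by 2-fold or more. All 10 milk protein genes lay below the lowest of the 17. Epcam read 6249.1 in WT and 5563.6 in PAX8PPARg, and Krt18 read 9096.6 and 7472.1. Macrophage markers also differed little (median -0.08), while adipocyte markers had a median of 2.89, B cell markers of 3.64 and T cell markers of 2.20 in PAX8PPARg minus WT. Their part in the milk protein differences was not tested.

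Among other milk products, 12 of 17 were lower by 2-fold or more and 1 higher in the PAX8PPARg placebo pool, with a median of -1.78. Lao1 (3259.0 in WT and 16.1 in PAX8PPARg, -6.86) had the largest difference, followed by the fatty acid binding protein gene Fabp3 (-4.34) and Pigr, the receptor that carries antibodies into milk (-3.90). Lactose synthesis had 2 of 10 genes lower by 2-fold or more, B4galt1 (-1.86) and Slc2a1 (-1.34), followed by the UDP-galactose transporter gene Slc35a2 (-0.78). Fam20c (-2.87), Atp2c2 (-2.26) and the calcium channel gene Orai1 (-1.16) were lower too. The lactogenic list had 2 genes lower and 5 higher out of 25, and its largest differences were positive: Pgr (2.05), Tnfsf11 (2.01) and Esr1 (1.45). Elf5 differed by -1.23.

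**Figure D3:**
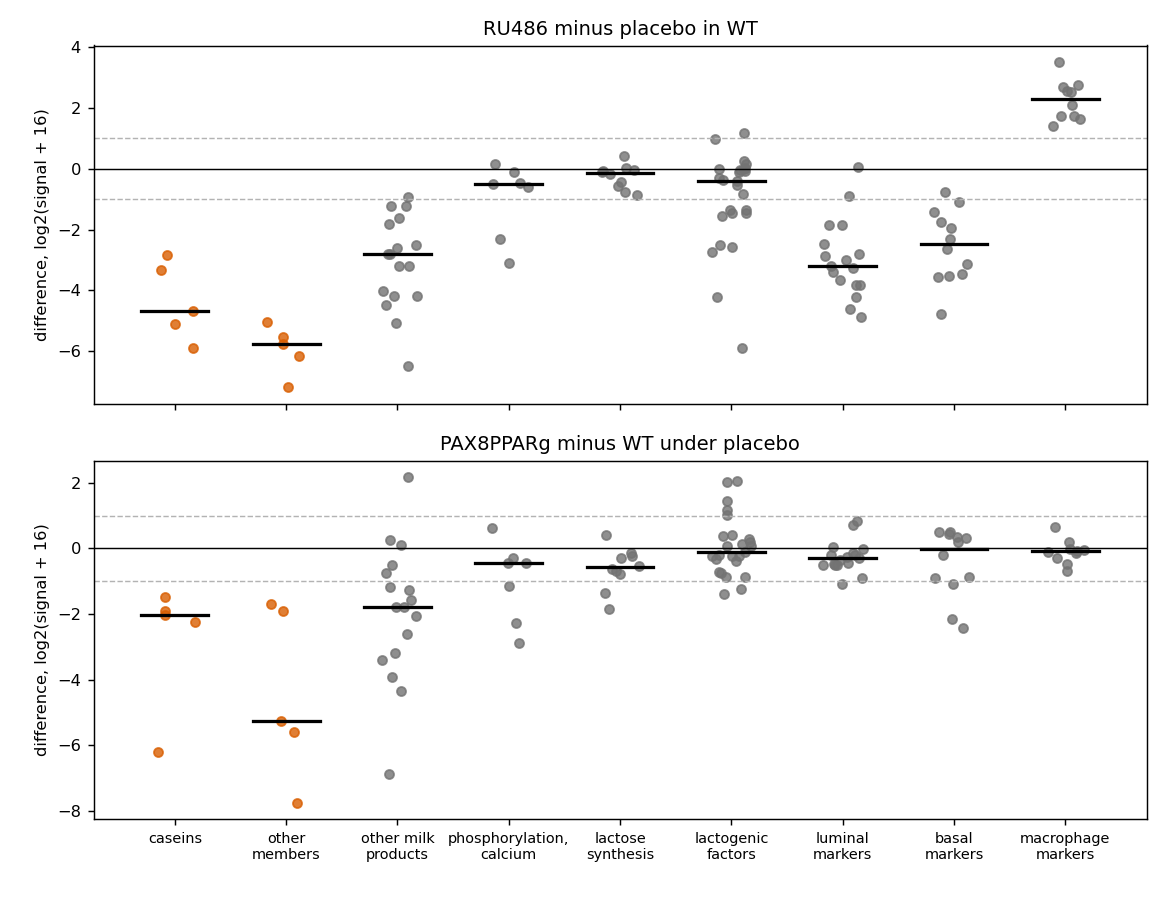
Differences on the log2(signal + 16) scale (y axis) of single genes (points) with the median of each list (bars), for RU486 minus placebo in WT (top) and PAX8PPARg minus WT under placebo (bottom); milk protein genes are in orange and dashed lines mark 2-fold. In the top panel luminal markers lie low (median -3.21) with the milk protein genes, and in the bottom panel luminal markers lie near 0 (median -0.28) while all 10 milk protein genes lie at or below -1.47.

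The fourth comparison set the genotypes side by side under RU486. In the PAX8PPARg pool 8 of the 10 genes were higher by 2-fold or more and 0 lower by 2-fold or more, where 10.9% of all genes were higher and 10.2% lower by that size. The median was 1.93 (all genes 0.01), or 1.30 with a gene's probe sets averaged. Csn2 differed by 3.88 (430.1 in WT and 6796.3 in PAX8PPARg), Csn1s1 by 2.77 and Btn1a1 by 2.48. The WT signal of Cel was within the background range, so its fold was at least 6.50 and it has no place in an order of the members. Csn1s2a (1.97), Lalba (1.90), Csn3 (1.42) and Glycam1 (1.06) were also among the 8. Lalba, at 19.0 in WT just above background, was at 2.53 with a pseudocount of 1 and 1.10 with 64. Glycam1 was within 2-fold with a pseudocount of 64 (0.93), and with spike-in scaling Glycam1 (0.50) and Csn3 (0.85) were. Over probe sets, 10 of 17 were higher by 2-fold or more. The other Csn3 probe set differed by -0.20 and 1 of Btn1a1 by 0.02, and with probe sets averaged Csn3 (0.61) was within 2-fold and Btn1a1 at 1.05. Wap differed by 0.58. Csn1s2b was within the background range on both arrays, and its difference has no reading.

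The luminal markers differed by more in this comparison, with a median of 3.63 and 16 of 17 higher by 2-fold or more. The luminal markers themselves ran from -0.14 (Esrp2) to 5.14 (Krt7), and 0 milk protein genes lay below the lowest of them. Of the milk protein genes, 8 lay 2-fold or more below the luminal median. That count includes Csn1s2b, which has no reading here, and Cel (2.58), whose difference is a lower bound and was 3.96 with a pseudocount of 1. These 2 genes cannot be placed against the luminal median. Apart from them, Csn2 was the member nearest to it, 0.25 above. The milk product list had 10 of 17 genes higher and 1 lower, led by the lactoferrin gene Ltf (3.23), Wfdc18, a gene of the same protein family as Wap (3.11), and Folr1 (3.01). Among the lactogenic genes Ehf (3.84), Elf5 (3.73) and Tfap2c (3.60) had the largest differences.

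Relative to the WT placebo array, with signals divided by each array's median, the 5 caseins had median levels of 3.82% (WT RU486), 24.3% (PAX8PPARg placebo) and 37.5% (PAX8PPARg RU486). Wap, Lalba and Cel, grouped after their values were seen, had medians of 0.774%, 1.48% and 3.65% in the same order. Their highest value on the PAX8PPARg RU486 array was 4.66%, whereas 4 caseins had 19.7% or more there and Csn1s2b 0.907%. These percentages are those of the chosen probe sets. Glycam1, at 30.5% under placebo in PAX8PPARg, was at 4.38% under RU486, and the 2 dimmest probe sets of Csn1s2a read 1049.4 and 436.0 under placebo in WT but 58.2 and 9.8 in PAX8PPARg.

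The only fit with a residual degree of freedom was the additive model of genotype and treatment (limma, with 1 residual degree of freedom), which counts any unequal response of the genotypes as error. With Benjamini-Hochberg adjustment over 12393 genes, limma gave 0 genes for RU486 and 0 for genotype (0.0% each), and so 0 members. At an unadjusted p below 0.05 there were 608 and 457 genes. Glycam1 was the member with the lowest p for RU486, with an estimate of -4.14 (SE 0.79), a limma adjusted p of 0.889 and a lower signal under RU486 in both genotypes. The other members had estimates for RU486 between -3.26 (Cel) and -1.38 (Csn3).

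Neighbours of the casein cluster were mostly within background on these arrays. The 10 nearest genes with a probe set on either side were compared, and 12 of these 20 were within the background range on all 4 arrays, where a lower level could not be seen. Nor could it be for Smr3a (4.4) and Prol1 (1.6), within background on the WT placebo array from which both comparisons below start. The nearest genes above background on that array were Jchain, 587.3 kb beyond Csn3, and Ythdc1, 829.5 kb beyond Csn1s1. So genes next to the cluster were not assessed for a lower level. In WT, 0 of 20 were lower by 2-fold or more under RU486 and 1 higher by 2-fold or more, Jchain (1.37), the gene of the antibody joining chain. In PAX8PPARg against WT under placebo, 0 were lower and 2 higher, Jchain (3.54) and the salivary gene Smr3a (2.44). On the side of Csn3, Smr3a starts 59.0 kb away, and on the side of Csn1s1, Sult1e1 ends 74.6 kb away and was within the background range on every array. No other gene inside the cluster had a probe set of its own here.

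**Figure D4:**
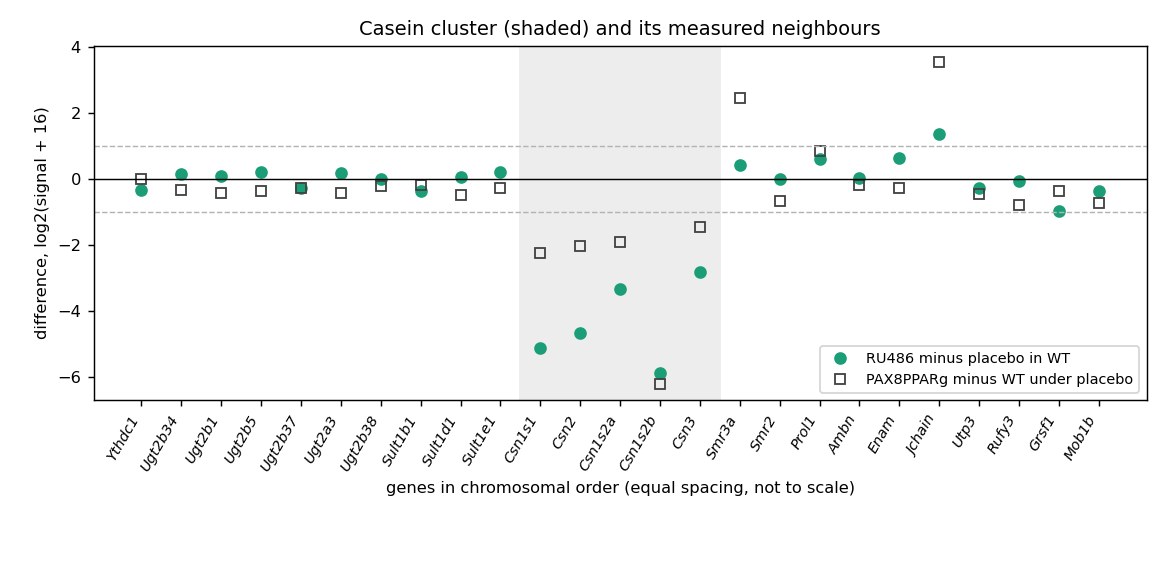
Differences on the log2(signal + 16) scale (y axis) for RU486 minus placebo in WT (filled circles) and PAX8PPARg minus WT under placebo (open squares) for the 5 caseins (shaded) and the 10 measured genes on either side, in chromosomal order at equal spacing. The caseins lie between -6.21 and -1.47, while 0 of the 20 neighbours lie at or below the lower dashed line at 2-fold. Of these neighbours, 12 were within the background range on all 4 arrays, and Smr3a and Prol1 on the WT placebo array, so they could not show a lower level.

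The genes most like the members in their pattern were found by distance to the members' median profile over the 4 arrays, among 6187 other genes at or above the median level. They were the sodium-glucose cotransporter gene Slc5a1 (distance 0.56 log2 units), the connexin gene Gjb6 (1.02), the nucleoside transporter gene Slc28a3 (1.13), Timd2 (1.20), the proton pump subunit gene Atp6v1c2 (1.21) and the lipolysis inhibitor gene G0s2 (1.22). Slc5a1 read 1177.0, 38.7, 290.8 and 232.0. The members themselves lay between 0.63 (Csn1s1) and 3.74 (Wap) from their median profile, so Slc5a1 was nearer to it than any member was. The exocrine pancreas, the other main source of Cel, left little signal: 13 measured pancreas genes summed to 136.5, 317.8, 180.8 and 204.3 over the 4 arrays, and the defining gene Cpa1 read 19.1 on the WT placebo array, where Cel read 3300.3.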

How the data were processed

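The deposited table holds 1 intensity per probe set and array, on a linear scale. Per the labels, biotin-labelled cRNA from RNA pooled from 5 mice per group was hybridised to Affymetrix arrays. Which software summarised the probes is not stated there. After trimming 2% from both ends, array means lay between 500.15 and 500.20, so the deposited values had been scaled to a common mean. No raw files or detection calls were used. Of 22626 probe sets that were not controls, 20380 had exactly 1 gene symbol in the platform annotation and covered 12393 genes. Probe sets with several symbols (691) or none (1555) were left out.

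Values were taken as log2(signal + 16), centred on each array's median, with no filter on low values. Genes were counted at 2-fold. The additive limma fit (3.58.1, R 4.3.3, Python 3.11.15) ran across all genes, and its steps were tested on simulated data. Bounds ("at least") use the highest of 27 bacterial controls on the dimmer array. Results were recomputed under 7 alternatives, and under 1 more, scaling to 18 spike-in controls, that was added after seeing the data. The members, the 14 lists and the motifs were chosen with earlier results of these data known. Of each list described in a comparison, the text names the 3 genes with the largest difference that were above background on at least 1 of its arrays, with the defining markers, the 6 genes nearest in pattern, and neighbours of the caseins (10 a side) that differed by 2-fold. Stat5a, Elf5 and Fam20c are also named outside that rule. So are the highest and lowest luminal markers, the venule and lymph node genes, and Ltf, Pigr and Folr1 for RU486 in PAX8PPARg.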

Additional observations from a re-analysis of the deposited data

Results flagged for a closer look

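In 7 of the 10 genes the RU486 difference was negative in WT and positive in PAX8PPARg, each from 1 array per group, and the difference between the genotypes was not tested. Of all genes, 28.2% had these signs. The PAX8PPARg effect minus the WT effect was 8.33 log2 units for Wap, 7.84 for Cel, 7.50 for Lalba, 6.35 for Csn1s2b, 5.90 for Csn2, 3.88 for Csn1s2a and 2.88 for Csn3. The signs depend on the scaling. With quantile normalization 5 genes had them, beside 25.9% of all genes, and Csn1s2a (-0.03) and Csn3 (-0.46) were negative in PAX8PPARg. With spike-in scaling 1 gene, Wap, had them, beside 4.08% of all genes. The PAX8PPARg difference of Csn3 was only 0.06. For Csn2, Wap and Lalba the difference was at least 2-fold in both genotypes, but in PAX8PPARg Csn2 was at 0.76 with quantile normalization and Lalba at 0.90 with a pseudocount of 64, and only Wap kept it under every setting. The Csn1s2b value rests on signals at or near background on 3 of the 4 arrays. In WT under RU486, Cel (6.8) was within background and Lalba (19.0) just above the limit of 18.5, and with the pseudocount their values ran from 6.05 to 9.47 and from 5.82 to 8.57.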

How the results depend on the processing

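The counts of members at least 2-fold lower or higher stayed within 1.5 times under 7 other settings in all 5 comparisons. The exception was the scaling to spike-in controls, chosen after seeing the data, for RU486 in PAX8PPARg, with 4 members lower and 1 higher, where Csn2 (-0.18) and Lalba (-0.052) reversed from 2-fold or more, and Cel (-0.75), Csn1s2a (-0.86), Csn1s2b (-0.94) and Csn3 (-1.35) from smaller positive values. Median differences moved by more than probe sets of 1 gene varied in these cases. For RU486 in WT the median was -4.76 with a pseudocount of 64, -5.48 with quantile normalization and -5.97 with spike-in scaling. For RU486 in PAX8PPARg it was -0.0078 with quantile normalization and -0.90 with spike-in scaling. For genotype under placebo it was -1.94 without centring, -2.84 with averaged probe sets and -1.95 with spike-in scaling. For genotype under RU486 it was 2.25 and 1.39 with pseudocounts of 1 and 64, 1.30 with averaged probe sets and 1.37 with spike-in scaling. For the difference of the RU486 effects it was 4.74 with a pseudocount of 64 and 4.71 with spike-in scaling. Apart from the alternatives' own construction, the causes were not tested. The limma fits gave 0 genes under the reported setting and those 7, and the lowest adjusted p of a member for RU486 ran from 0.320 to 0.974. Leaving out a replicate was not possible with 1 array a group, and depth, here signal over background, limits Csn1s2b and Cel, which lay within background on 2 arrays and 1 array. No paired analysis was possible because each group has 1 array.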

Other observations

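Some marker lists differed little beside the milk protein genes. Fibroblast markers had a median of 0.16 for RU486 in WT, with 1 of 8 lower by 2-fold or more, and 0 of 7 endothelial markers differed by that size there. In PAX8PPARg under RU486, 4 of 7 endothelial markers were lower, with a median of -1.26, as were 9 of 9 T cell markers, whose summed signal was 4165.1 under placebo and 458.6 under RU486. Genes of lactose synthesis had a median of 0.17 in that comparison, with 1 of 10 higher, and genes of casein phosphorylation and calcium transport one of 0.31, with 0 of 7 differing by 2-fold. Fam20c, the casein kinase gene, read 248.5 under placebo and 197.3 under RU486 in PAX8PPARg.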
